A study of Mus musculus with 12 samples.

Results

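The genes described here are *Pi16*, *Cd248*, *Clec3b*, *Dpt*, *Ccdc80*, *Dpp4*, *Nbl1*, *Fstl1* and *Pdgfra*, a group named for the fibroblasts of the adventitia, the connective tissue coat around vessels. These 9 genes, of 46983 in the count files, were chosen by name with their measured levels in these same LVs already known, chiefly in the diabetes-exposed Hif1a+/- offspring. All 9 passed the filter on low counts, and 14706 genes in all were tested. The comparisons that include the diabetes-exposed Hif1a+/- samples are therefore given as descriptions. All genes but *Dpp4* and *Pdgfra* are also on a list that the study drew from these samples, so their direction there is not independent evidence. That list was drawn by change against non-diabetic Wt, so the other comparisons with this group are not free of the choice either.

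RNA was sequenced from the left ventricle (LV) of 12 offspring aged 12 weeks, 3 in each of 4 groups. The groups were Wt and Hif1a+/- offspring of non-diabetic pregnancies, and Wt and Hif1a+/- offspring of diabetic pregnancies. All dams were Wt FVB females, made diabetic with streptozotocin in the diabetic groups and mated with Hif1a+/- males, so that both genotypes came from the same kind of mating. Hif1a+/- offspring carry a global null allele (*Hif1a* tm1jhu) in every tissue, and streptozotocin, a toxin of the insulin-producing beta cells, was given to the mother and not to the offspring. The 3 samples of a group came from mice of different litters, and each is named below by the animal number in its title.

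Adventitial fibroblasts marked by *Pi16* and *Dpp4* are known as a pool found around vessels in many organs, and fibroblasts of the heart in general carry the receptor Pdgfra. The other genes of the group encode surface or secreted proteins that such fibroblasts make. The LV is mostly cardiomyocyte by mass, so that these transcripts are a small part of the RNA of a sample. In RNA of a whole LV, more cells of a type and more RNA per cell cannot be told apart.

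Summed over genes, the libraries held from 16132442 to 39812939 counts. The 3′-seq libraries were read from the 3′ end of each transcript. *Hif1a* itself lay at 61.5 CPM ± 8.96 in non-diabetic Wt and 85.7 ± 6.01 in non-diabetic Hif1a+/- (SD, n = 3), a log2 fold change of 0.48. Tags from the 3′ end need not fall in the part that the null allele lacks, so this level does not check the genotype. The labels give every sample as female and the study's text as male. The summed CPM of *Ddx3y*, *Eif2s3y*, *Kdm5d* and *Uty*, 4 Y-linked genes, exceeded that of *Xist* in 11 samples. In diabetes-exposed Hif1a+/- replicate 72, *Xist* was at 158 CPM and the Y-linked genes together at 1.14 CPM, and the main counts are also given without it.

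Levels are CPM, counts relative to library size scaled by edgeR's TMM method, and they are compared between samples for 1 gene at a time. The genome positions are from GRCm38.

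Of the surface proteins, *Pi16* (ENSMUSG00000024011, chromosome 17, 29317680 to 29330593, plus strand) encodes peptidase inhibitor 16, a protein of the CAP family held at the cell surface. In non-diabetic Wt the 3 samples were at 64.8, 47.5 and 70.6 CPM, in diabetes-exposed Wt at 49.4, 76.3 and 56.0 CPM, and in non-diabetic Hif1a+/- at 56.1, 60.6 and 56.1 CPM. In diabetes-exposed Hif1a+/- they were at 146 CPM in replicate 66, 91.4 CPM in replicate 72 and 267 CPM in replicate 77. Every diabetes-exposed Hif1a+/- sample thus lay above all 9 others, whose groups overlapped one another. The mean was 168.2 CPM ± 89.9 in diabetes-exposed Hif1a+/- against 57.6 ± 2.60 in non-diabetic Hif1a+/- (SD, n = 3), a ratio of 2.92. The spread between the samples was 53.4% of the mean in the first group and 4.52% in the second.

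*Cd248* (ENSMUSG00000056481, chromosome 19, 5068078 to 5070682, plus strand) encodes endosialin, a C-type lectin of fibroblast and pericyte membranes. Its levels were 15.1 to 16.6 CPM in the 3 non-diabetic Wt samples, 13.3, 17.5 and 17.8 CPM in diabetes-exposed Wt, and 15.2, 19.3 and 16.3 CPM in non-diabetic Hif1a+/-. The diabetes-exposed Hif1a+/- samples were at 24.2, 29.4 and 53.6 CPM. As for *Pi16*, the highest sample was replicate 77 and the 3 samples lay above all others.

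*Dpp4* (ENSMUSG00000035000, chromosome 2, 62330073 to 62412231, minus strand) encodes dipeptidyl peptidase 4, a membrane enzyme that clips peptide hormones and chemokines. It was the gene with the fewest reads here, 52 to 146 counts per sample. Its levels were 3.24, 3.46 and 3.23 CPM in non-diabetic Wt and 4.52, 4.22 and 5.54 CPM in diabetes-exposed Wt, without overlap. They were 3.82, 3.66 and 2.97 CPM in non-diabetic Hif1a+/- and 3.75, 5.06 and 3.75 CPM in diabetes-exposed Hif1a+/-, with overlap. *Dpp4* was the member whose highest group mean, 4.76 CPM ± 0.692 (SD, n = 3), was in diabetes-exposed Wt.

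*Pdgfra* (ENSMUSG00000029231, chromosome 5, 75152292 to 75198215, plus strand) encodes the alpha receptor for platelet-derived growth factor. Its levels were 39.0, 40.8 and 49.3 CPM in non-diabetic Wt, 34.5, 42.1 and 53.5 CPM in diabetes-exposed Wt, and 46.2, 45.9 and 42.1 CPM in non-diabetic Hif1a+/-. The diabetes-exposed Hif1a+/- samples were at 49.1, 61.0 and 45.9 CPM, and the highest was replicate 72. All 4 groups overlapped one another.

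Of the secreted proteins, *Clec3b* (ENSMUSG00000025784, chromosome 9, 123150946 to 123157432, plus strand) encodes tetranectin, which binds plasminogen. It was at 51.4, 48.5 and 57.8 CPM in non-diabetic Wt, at 52.6, 56.8 and 67.0 CPM in diabetes-exposed Wt and at 49.5, 57.1 and 51.5 CPM in non-diabetic Hif1a+/-. In diabetes-exposed Hif1a+/- it was at 71.2, 109 and 118 CPM, above every other sample.

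*Dpt* (ENSMUSG00000026574, chromosome 1, 164796644 to 164824266, plus strand) encodes dermatopontin, a matrix protein that binds collagen fibrils. Its levels were 110, 104 and 109 CPM in non-diabetic Wt, 113, 107 and 141 CPM in diabetes-exposed Wt, 96.4, 110 and 109 CPM in non-diabetic Hif1a+/- and 135, 154 and 178 CPM in diabetes-exposed Hif1a+/-. The diabetes-exposed groups overlapped through Wt replicate 80.

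*Ccdc80* (ENSMUSG00000022665, chromosome 16, 45093402 to 45128077, plus strand) encodes a secreted matrix protein. Its levels were 93.1, 88.3 and 102 CPM in non-diabetic Wt, 90.9, 124 and 112 CPM in diabetes-exposed Wt, 87.2, 84.6 and 81.3 CPM in non-diabetic Hif1a+/- and 143, 119 and 128 CPM in diabetes-exposed Hif1a+/-. The diabetes-exposed groups overlapped through Wt replicate 7, and the 3 non-diabetic Hif1a+/- samples lay below the 3 non-diabetic Wt samples.

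*Nbl1* (ENSMUSG00000041120, chromosome 4, 139082284 to 139092993, minus strand) encodes a secreted antagonist of bone morphogenetic proteins of the DAN family. It was at 14.5, 14.6 and 16.1 CPM in non-diabetic Wt, at 14.8, 19.5 and 17.5 CPM in diabetes-exposed Wt, at 15.4, 13.6 and 17.6 CPM in non-diabetic Hif1a+/- and at 23.2, 24.0 and 26.0 CPM in diabetes-exposed Hif1a+/-. The last 3 samples were above all others and close together, with a spread of 5.88% of their mean.

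*Fstl1* (ENSMUSG00000022816, chromosome 16, 37776873 to 37836514, plus strand) encodes a secreted glycoprotein with a follistatin-like domain. Its levels were 99.7, 109 and 110 CPM in non-diabetic Wt, 95.5, 127 and 110 CPM in diabetes-exposed Wt, 103, 111 and 111 CPM in non-diabetic Hif1a+/- and 155, 143 and 220 CPM in diabetes-exposed Hif1a+/-. The 3 last samples again lay above all others, with replicate 77 highest.

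**Figure D1:**
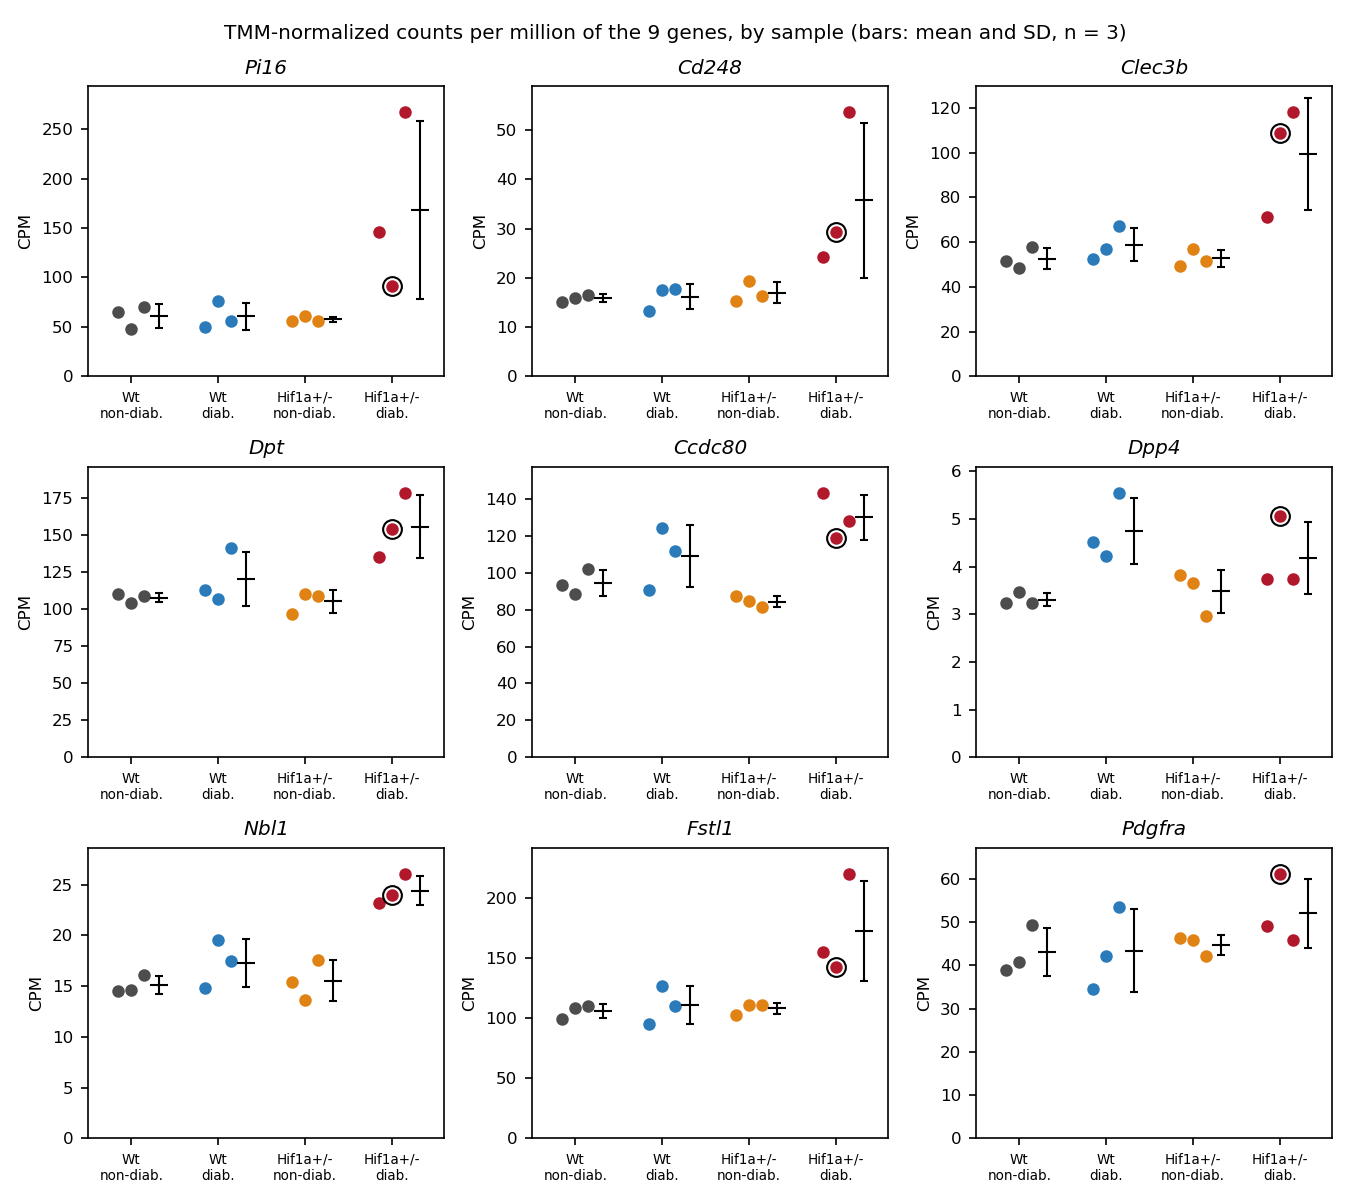
TMM-scaled CPM of each of the 9 genes (vertical axes, from 0) in the 3 samples of each group (horizontal axes), with the group mean and SD beside the points and a ring around diabetes-exposed Hif1a+/- replicate 72. In *Pi16*, *Cd248*, *Clec3b*, *Nbl1* and *Fstl1* the 3 diabetes-exposed Hif1a+/- points lie above the other 9, which they do not in *Dpt*, *Ccdc80*, *Dpp4* and *Pdgfra*.

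The sequence before the annotated starts was inspected, the question being whether the core letters that HIF-1 is known to bind are found there. RefSeq windows of 250 bases before a start (GRCm38.p6) were at hand for 6 of the 9 genes, namely *Pi16*, *Dpt*, *Dpp4*, *Nbl1*, *Fstl1* and *Pdgfra*. The letters ACGTG or GCGTG, on either strand, were found in 38.6% of all 32851 such windows and in 1 of these 6, that of *Dpt*. All 250 bases of the *Pi16* window and 182 of the *Fstl1* window lie in exons of these genes in GENCODE M21, so they are not printed. The stretches outside exons are shown for *Dpt* (chr1:164796413-164796643, plus strand), in which the capitals mark the match, starting 75 bases before the RefSeq start, and for *Nbl1* (chr4:139092994-139093220, minus strand), a gene with no match. Both are written 5′ to 3′.
Dpt: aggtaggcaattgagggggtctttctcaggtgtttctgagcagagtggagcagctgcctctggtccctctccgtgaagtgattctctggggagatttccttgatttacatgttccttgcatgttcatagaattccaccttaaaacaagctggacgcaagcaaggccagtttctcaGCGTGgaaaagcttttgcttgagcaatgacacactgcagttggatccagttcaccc
Nbl1: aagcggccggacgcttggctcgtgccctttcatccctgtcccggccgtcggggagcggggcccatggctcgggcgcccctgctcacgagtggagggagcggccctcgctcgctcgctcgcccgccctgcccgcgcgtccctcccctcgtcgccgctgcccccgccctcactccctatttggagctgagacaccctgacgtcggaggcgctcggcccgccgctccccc
A match describes letters and is not a binding site, and the absence of one says only that these letters are not in this window.

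The first comparison asked what maternal diabetes did in Wt offspring. Its fold changes compare Wt samples only, but the filter and the spread behind its SE and p came from the fit of all 12 samples. Among the 9 genes, *Dpp4* had the largest difference, a log2 fold change of 0.52 ± 0.180 (SE, edgeR). Its adjusted p was 1 with edgeR and with DESeq2. The other 8 genes lay between -0.01 for *Pi16* and 0.21 for *Ccdc80*. By edgeR's quasi-likelihood test 0 of 9 passed an adjusted p of 0.1, as did 0% of all genes tested, and in a fit of the 6 Wt samples alone edgeR again called 0 of 9 and 0% of all genes. At an unadjusted p under 0.05, 1 of 9 passed against 2.78% of all genes, and with DESeq2 0 of 9 passed against 0.0148%. All 3 diabetes-exposed samples were above all 3 non-diabetic ones in 1 of 9 genes, *Dpp4*, against 2.14% of all genes. The median log2 fold change of the 9 genes was 0.16, beside 0.0056 over all genes tested.

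The second comparison asked what the *Hif1a* mutation did without maternal diabetes. The log2 fold changes of Hif1a+/- against Wt lay between -0.16 for *Ccdc80* (SE 0.111, edgeR adjusted p = 1) and 0.09 for *Cd248* (SE 0.238), with a median of 0.03 beside 0.0019 over all genes. In edgeR 0 of 9 passed (0% of all genes), and 0 of 9 had an unadjusted p under 0.05 (0.959% of all genes). With DESeq2 0 of 9 passed (0.00369% of all genes). In 0 of 9 genes were all Hif1a+/- samples above all Wt samples (2.55% of all genes), and in 1 of 9, *Ccdc80*, they were all below (2.26% of all genes). Neither comparison showed a difference in *Pi16* beyond the spread between samples. Its log2 fold changes were -0.01 ± 0.294 and -0.08 ± 0.294 (SE).

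Between diabetes-exposed and non-diabetic Hif1a+/-, all 9 genes had positive log2 fold changes. For the surface proteins these were 1.55 ± 0.297 for *Pi16*, 1.08 ± 0.233 for *Cd248*, 0.26 ± 0.179 for *Dpp4* and 0.22 ± 0.151 for *Pdgfra* (SE, edgeR). For the secreted proteins they were 0.92 ± 0.159 for *Clec3b*, 0.67 ± 0.143 for *Fstl1*, 0.65 ± 0.122 for *Nbl1*, 0.62 ± 0.111 for *Ccdc80* and 0.57 ± 0.117 for *Dpt*. The median was 0.65, beside -0.0059 over all genes tested. The genes were selected on this contrast, so the counts that follow describe the choice.

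In edgeR 0 of 9 genes passed the adjusted threshold, as did 0% of all genes. The smallest adjusted p among the 9 was 0.124, for *Ccdc80* and *Clec3b*. *Pi16* had an adjusted p of 0.178. At an unadjusted p under 0.05, 7 of 9 passed beside 12.0% of all genes. With DESeq2 7 of 9 passed beside 1.44% of all genes, the exceptions being *Dpp4* (adjusted p = 0.655) and *Pdgfra* (adjusted p = 0.613). *Dpp4* and *Pdgfra* were also the genes whose samples overlapped between these groups. The other 7 did not overlap, beside 11.2% of all genes higher in every diabetes-exposed sample. Without replicate 72, DESeq2 again called these 7 genes, beside 1.21% of all genes, and the log2 fold change of *Pi16* by edgeR was 1.85. Without replicate 77 it was 1.05 for *Pi16* and 0.66 for *Cd248*, the lowest of their leave-one-out values, whereas DESeq2 called the same 7 genes, beside 0.667% of all genes. Without replicate 72 the log2 fold change was 0.12 for *Dpp4* and 0.10 for *Pdgfra*.

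Between diabetes-exposed Hif1a+/- and diabetes-exposed Wt, the log2 fold changes were 1.47 ± 0.296 for *Pi16*, 1.13 ± 0.233 for *Cd248*, 0.76 ± 0.158 for *Clec3b*, 0.64 ± 0.143 for *Fstl1* and 0.50 ± 0.121 for *Nbl1*, and those of *Dpt*, *Pdgfra* and *Ccdc80* lay between 0.25 and 0.37 (SE, edgeR). *Dpp4* had a negative value, -0.18 ± 0.175. The adjusted threshold was passed by 0 of 9 in edgeR beside 0% of all genes, an unadjusted p under 0.05 by 7 of 9 beside 5.35%, and with DESeq2 4 of 9, *Pi16*, *Cd248*, *Clec3b* and *Fstl1*, beside 0.155%. Without replicate 72 DESeq2 called 3 of 9 beside 0.239%, with *Clec3b* lost. Without replicate 77 it called *Pi16* and *Cd248* only, that is 2 of 9 beside 0.108%, and their log2 fold changes by edgeR were then 0.97 and 0.72. All Hif1a+/- samples were above all Wt samples in 5 of 9 genes beside 4.32% of all genes.

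The comparison of diabetes-exposed Hif1a+/- with non-diabetic Wt shares samples with the comparisons above, and its values stand beside them. The log2 fold change was 1.46 ± 0.296 for *Pi16*, 1.16 ± 0.234 for *Cd248*, 0.92 ± 0.159 for *Clec3b*, 0.33 ± 0.180 for *Dpp4* and 0.27 ± 0.151 for *Pdgfra* (SE, edgeR), and those of *Dpt*, *Ccdc80*, *Nbl1* and *Fstl1* lay between 0.46 and 0.70. By edgeR 0 of 9 passed beside 0%, at an unadjusted p under 0.05 7 of 9 beside 8.85%, and with DESeq2 7 of 9 beside 0.454%. DESeq2 called 7 of 9 without replicate 72 as well, beside 0.654%. Without replicate 77 the log2 fold change by edgeR was 0.96 for *Pi16* and 0.75 for *Cd248*. In 8 of 9 genes, *Pdgfra* being the exception, all Hif1a+/- samples were above all Wt samples, beside 7.47% of all genes.

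The genotype by pregnancy interaction asked whether the difference with maternal diabetes was larger in Hif1a+/- than in Wt. It was 1.55 ± 0.416 for *Pi16* on the log2 scale (SE, edgeR adjusted p = 0.998), 1.05 ± 0.332 for *Cd248* and 0.75 ± 0.224 for *Clec3b*. *Dpp4* had a value of -0.26 ± 0.254. With edgeR 0 of 9 passed beside 0% of all genes, at an unadjusted p under 0.05 7 of 9 beside 2.52%, and with DESeq2 0 of 9 beside 0%. Without replicate 72 DESeq2 called 1 of 9, *Pi16*, beside 0.0514% of all genes. Without replicate 66 it called *Clec3b* alone, beside 0.00374%, and without replicate 77 0 of 9, beside 0.00372%. Without replicate 77 the interaction by edgeR was 1.05 for *Pi16* and 0.64 for *Cd248*. EdgeR without the filter on low counts called 4 of 9 beside 0.288% of all genes, so that whether any of the 9 passed depended on the setting.

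**Figure D2:**
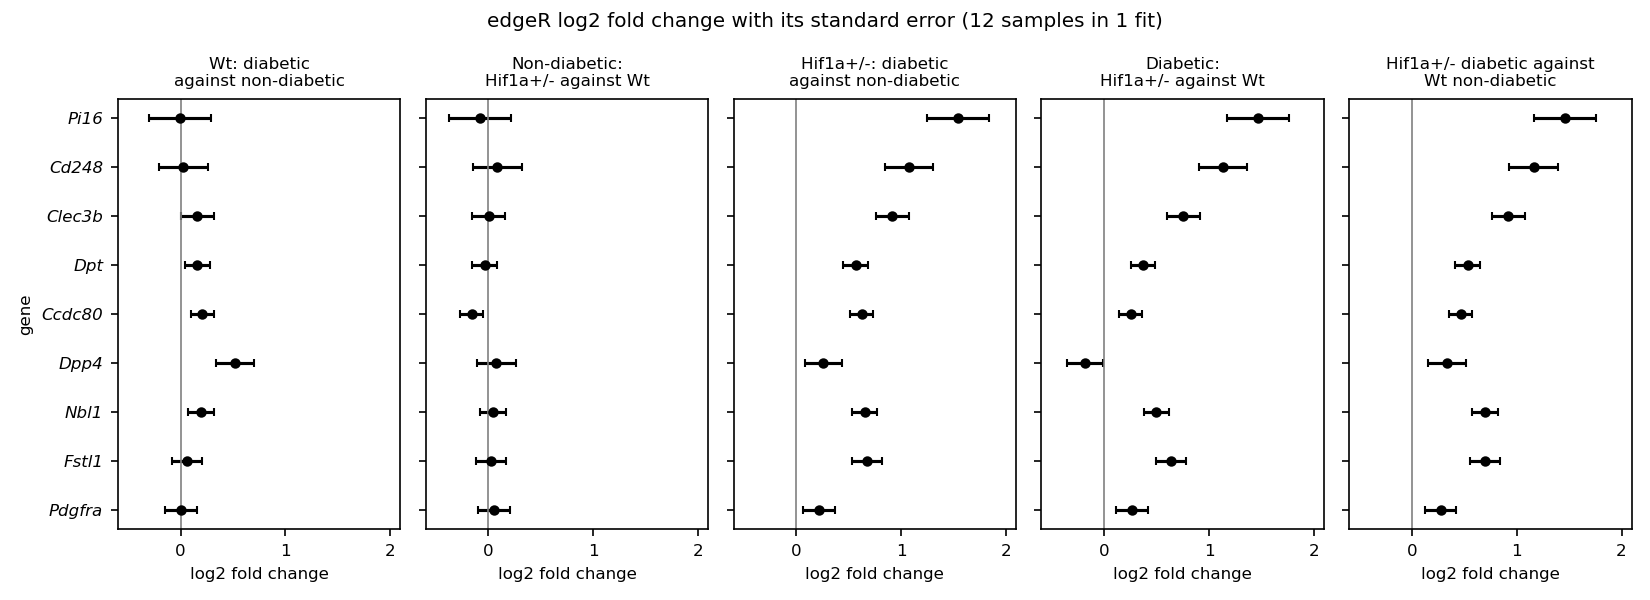
Log2 fold change by edgeR (horizontal axes) of each of the 9 genes (vertical axis) in the 5 comparisons of groups, with bars of 1 standard error and a line at 0. In the 2 panels without diabetes-exposed Hif1a+/- samples only *Dpp4* in Wt exceeds 0.5, and in the other 3 *Pi16* has the largest value, between 1.46 and 1.55.

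The levels of the other genes were next set against *Pi16* as log2 CPM over the 12 samples. No p is given, because the genes were picked from these values, and the samples share their library preparation and the step between groups. Pearson's r was 0.959 for *Fstl1*, 0.917 for *Cd248*, 0.845 for *Nbl1*, 0.810 for *Clec3b*, 0.774 for *Dpt* and 0.767 for *Ccdc80*. It was 0.324 for *Pdgfra* and 0.006 for *Dpp4*. Spearman's rho was 0.811 for *Fstl1*, 0.720 for *Cd248*, 0.469 for *Dpt* and between 0.685 and 0.727 for *Nbl1*, *Clec3b* and *Ccdc80*. For *Pdgfra* and *Dpp4* rho was 0.385 and -0.014. The median r of the 8 genes was 0.792, beside -0.011 for all other genes tested. An r over 0.9 was found for 2 of the 8 genes and for 0.102% of 14705 genes.

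The 3 diabetes-exposed Hif1a+/- samples stood apart, so r was also taken without the step between groups. With group means taken off, r with *Pi16* was 0.856 for *Fstl1* and 0.708 for *Cd248*, lay between 0.260 and 0.510 for *Clec3b*, *Dpt*, *Nbl1* and *Ccdc80*, and was -0.264 for *Pdgfra* and -0.595 for *Dpp4*. The median r was then 0.350. The spread of *Pi16* within groups was largest in diabetes-exposed Hif1a+/- (SD 89.9 CPM against 2.60 to 14.0 in the other groups), so that these values weigh that group most. Over the 9 samples outside diabetes-exposed Hif1a+/-, r was 0.597 for *Ccdc80*, 0.582 for *Fstl1*, 0.451 for *Nbl1*, 0.438 for *Cd248*, 0.363 for *Clec3b*, 0.295 for *Pdgfra*, -0.059 for *Dpt* and -0.148 for *Dpp4*, with a median of 0.401. Without the 2 samples farthest from the median of *Pi16*, replicates 77 and 66 of diabetes-exposed Hif1a+/-, r remained 0.795 for *Fstl1* and 0.754 for *Cd248*. It lay between 0.706 and 0.736 for *Nbl1*, *Clec3b* and *Ccdc80*, and was 0.612 for *Pdgfra*, 0.476 for *Dpt* and 0.209 for *Dpp4*. Without replicate 72, r was 0.963 for *Fstl1*, 0.936 for *Cd248* and 0.915 for *Clec3b*. It was 0.887 for *Nbl1*, 0.803 for *Dpt*, 0.766 for *Ccdc80*, 0.317 for *Pdgfra* and -0.057 for *Dpp4*.

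Among the 36 pairs of the 9 genes, r lay between 0.006 and 0.964, with a median of 0.727. *Cd248* with *Fstl1* was the closest pair. With group means taken off, the median was 0.324, and 3 pairs were above 0.8, namely *Cd248* with *Fstl1* at 0.872, *Pi16* with *Fstl1* at 0.856 and *Clec3b* with *Dpt* at 0.807. *Dpp4* and *Pdgfra*, the genes outside the other 7, had an r to each other of 0.418 over the 12 samples and of 0.685 within groups. In diabetes-exposed Hif1a+/- both were highest in replicate 72.

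**Figure D3:**
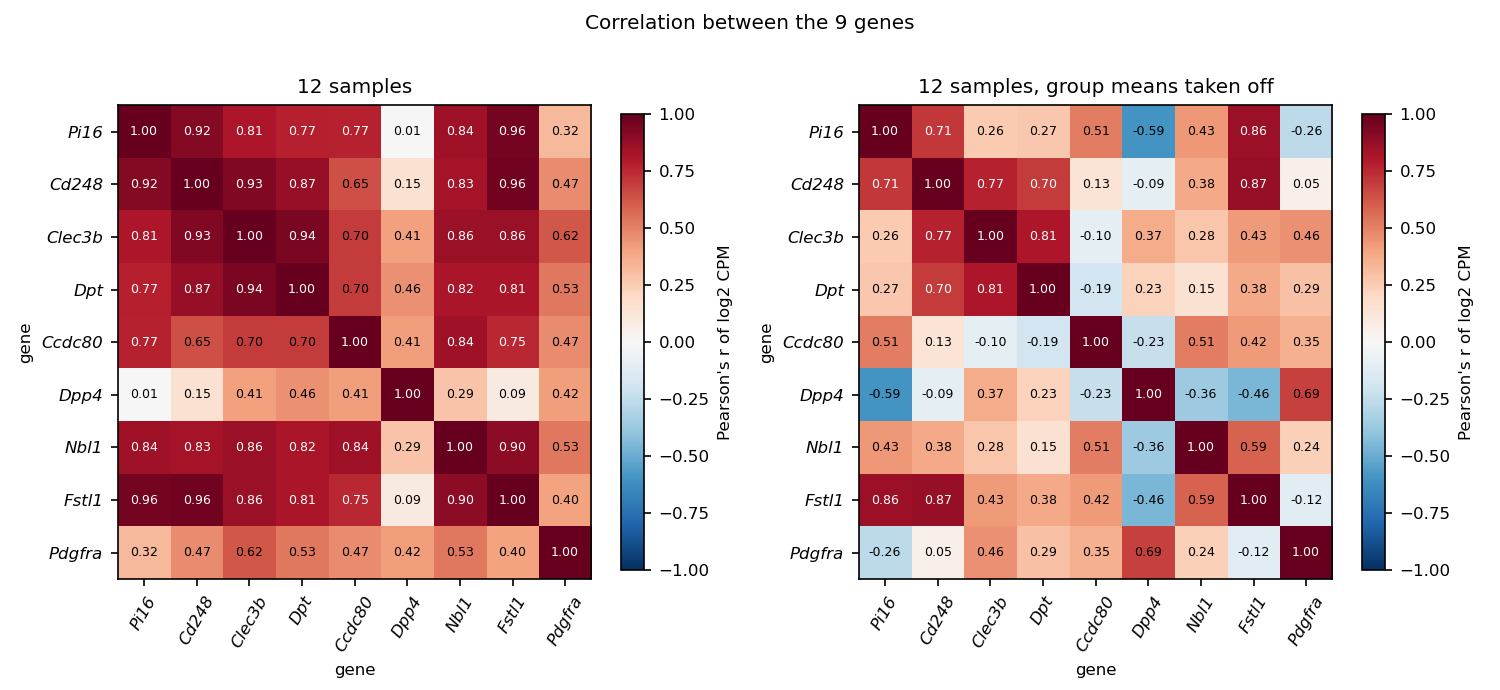
Pearson's r of log2 CPM between each pair of the 9 genes, as colour and number, over the 12 samples (left) and after group means were taken off (right). The rows of *Dpp4* and *Pdgfra* are pale on the left, and on the right most of the other pairs are paler than on the left.

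The genes whose levels were most like *Pi16* over the 12 samples, by r of log2 CPM and members included, were *Cd55* (0.962), *Fstl1*, *Lbp* (0.946), *Tgfbr2* (0.944), *Duox1* (0.940), *Cadm3* (0.937), *Mfap5* (0.935), *Timp1* (0.925), *Adgrd1* (0.923) and *Cd248*. All of them are on the study's list from these samples, as *Pi16* is, so this ranking is not independent of that list. *Cd55* encodes a complement regulator, *Lbp* a lipopolysaccharide-binding protein, *Tgfbr2* a receptor for TGF-β, *Mfap5* a protein of matrix microfibrils and *Timp1* an inhibitor of metalloproteinases. With group means taken off the first 10 were *Tgfbr2* (0.959), *Atn1* (0.951), *Art3* (0.916), *Trim67* (0.898), *Mustn1* (0.895), *Sod3* (0.895), *Cd55* (0.890), *Nepn* (0.883), *Adgrd1* (0.881) and *Serpine2* (0.871). Only *Tgfbr2*, *Cd55* and *Adgrd1* are in both rankings. *Nbl1*, *Clec3b*, *Dpt* and *Ccdc80* had ranks of 32, 64, 105 and 118 among 14705 genes in the first and ranks from 677 to 2769 in the second. *Pdgfra* had ranks of 2965 in the first and 11983 in the second, and *Dpp4* of 7148 and 14358.

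Other genes known from adventitial fibroblasts were read in the same samples. Of 17 listed, 15 had a positive log2 fold change between diabetes-exposed and non-diabetic Hif1a+/-, with a median of 0.46. Of all genes tested, 0% passed here with edgeR and 12.0% had an unadjusted p under 0.05. With DESeq2 1.44% passed, or 1.21% without replicate 72. These shares also stand beside the lists below for this comparison. Of the listed genes, 0 of 17 passed with edgeR. At an unadjusted p under 0.05 10 were higher and 0 lower, and with DESeq2 2 of 16 passed, both higher. These were *Mfap5*, at 24.8 CPM ± 0.494 in non-diabetic and 46.6 ± 8.31 in diabetes-exposed Hif1a+/-, and *Cd55*, at 9.14 ± 0.839 and 22.0 ± 11.6 (SD, n = 3). *Gfpt2*, an enzyme of the hexosamine pathway, had a log2 fold change of 1.18 ± 0.314 and *Cd34*, a sialomucin of progenitor and endothelial cells, one of 0.45 ± 0.137 (SE, edgeR adjusted p = 0.258 and 0.298). Without replicate 72 DESeq2 called 6 of 16, all higher. *Mfap5* and *Cd55* are on the study's list from these samples too. Between diabetes-exposed Hif1a+/- and diabetes-exposed Wt DESeq2 called 3 of 17, *Mfap5*, *Cd55* and *Fbn1*, beside 0.155% of all genes. *Fbn1*, which encodes the microfibril protein fibrillin 1 and is also on that list, was at 59.0 CPM ± 13.4 in diabetes-exposed Wt and 123.4 ± 19.6 in diabetes-exposed Hif1a+/- (SD, n = 3). Its means in non-diabetic Wt and Hif1a+/- lay between these, at 86.7 ± 12.3 and 88.6 ± 0.544 CPM. By mean, *Fbn1* was thus lower with maternal diabetes in Wt and higher in Hif1a+/-. In Wt the 17 genes had a median of 0.13 between diabetes-exposed and non-diabetic samples, and 0 passed with edgeR or DESeq2.

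All 12 general fibroblast genes had a positive log2 fold change between diabetes-exposed and non-diabetic Hif1a+/-, with a median of 0.35, and 0 passed with edgeR or DESeq2. At an unadjusted p under 0.05, 4 were higher. *Htra3*, a secreted protease, had a log2 fold change of 0.51 ± 0.156 and *Bgn*, the proteoglycan biglycan, of 0.35 ± 0.116. *Tcf21*, a transcription factor of cardiac fibroblasts, had one of 0.35 ± 0.128, and *Col1a1*, a chain of collagen I, one of 0.47 ± 0.199 (SE, edgeR). Without replicate 72 the median was 0.17, and the log2 fold changes of *Bgn* and *Col1a1* were 0.22 and 0.23. Between diabetes-exposed Hif1a+/- and diabetes-exposed Wt the median was 0.18. At an unadjusted p under 0.05 4 genes were higher (5.35% of all genes passed), and DESeq2 called 1 of 12 (0.155% of all genes). This was *Col3a1*, the chain of collagen III, at 222.5 CPM ± 24.0 in diabetes-exposed Wt and 419.3 ± 142.8 in diabetes-exposed Hif1a+/- (SD, n = 3). Its means in non-diabetic Wt and Hif1a+/- lay between these, at 301.5 ± 88.5 and 308.7 ± 55.0 CPM. It is on the study's list from these samples. Over the samples, the summed level of these 12 genes was 3479 to 4660 CPM in non-diabetic Wt, 3810 to 5652 in diabetes-exposed Wt, 3852 to 3959 in non-diabetic Hif1a+/- and 3960 to 5588 in diabetes-exposed Hif1a+/-. Diabetes-exposed Hif1a+/- thus overlapped both Wt groups in this sum and lay, only just, above non-diabetic Hif1a+/-. This sum weighs most the genes with the highest levels. The summed level of the 9 genes was 736.5 to 1039 CPM in diabetes-exposed Hif1a+/- and at most 579.9 CPM in every other sample. The 9 genes were chosen with their levels in this group known. Their separation therefore describes the choice and cannot be set against the sum of the general fibroblast genes.

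Of 7 genes of activated fibroblasts, 0 had an unadjusted p under 0.05 between diabetes-exposed and non-diabetic Hif1a+/-. Their median log2 fold change was 0.11. *Ltbp2*, a matrix protein of the latent TGF-β binding family, lay at 0.37 ± 0.284, *Comp*, a cartilage matrix protein, at 0.36 ± 0.327, *Thbs4*, a thrombospondin, at -0.21 ± 0.192 and *Meox1*, a homeobox factor, at 0.11 ± 0.197 (SE, edgeR). Without replicate 72 *Ltbp2* lay at 0.68, *Comp* at 0.59 and *Meox1* at -0.02.

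Among the ligands of the platelet-derived growth factor (PDGF) family and its other receptor, 0 of 5 had an unadjusted p under 0.05 between diabetes-exposed and non-diabetic Hif1a+/-. The log2 fold change was 0.53 ± 0.263 for *Pdgfc*, -0.15 ± 0.152 for *Pdgfd*, -0.08 ± 0.119 for *Pdgfa* and 0.11 ± 0.167 for *Pdgfrb* (SE, edgeR), and without replicate 72 the last 3 were -0.09, 0.02 and 0.00. Of 25 relatives of the members by family, 20 were tested, and *R3hdml* and *Grem1* had no count in any sample. Their median log2 fold change was 0.05. With edgeR 0 passed, and at an unadjusted p under 0.05 4 were higher and 1 lower. With DESeq2 1 of 19 passed, *Srpx*, a sushi-repeat protein related to Ccdc80. It was at 3.17 CPM ± 0.186 in non-diabetic and 6.39 ± 0.593 in diabetes-exposed Hif1a+/- (SD, n = 3), and it is on the study's list from these samples. *Clec11a*, a growth factor with a C-type lectin fold, had a log2 fold change of 1.04 ± 0.309, or 0.60 without replicate 72, and the enzymes related to Dpp4 had -0.26 ± 0.104 for *Dpp8* and 0.51 ± 0.215 for *Dpp7* (SE, edgeR).

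Markers of other cell types were read in the same samples. Macrophage markers differed along with the 9 genes. All 8 had a positive log2 fold change between diabetes-exposed and non-diabetic Hif1a+/-, with a median of 0.92. By edgeR 0 of 8 passed, all 8 had an unadjusted p under 0.05, and with DESeq2 5 of 8 passed, or 6 of 8 without replicate 72. The log2 fold change was 1.25 ± 0.251 for *C1qb*, 1.02 ± 0.222 for *C1qc* and 1.01 ± 0.243 for *C1qa*, the chains of complement C1q, 0.97 ± 0.210 for *Lyz2*, a lysozyme of myeloid cells, and 0.87 ± 0.235 for *Mrc1*, a mannose receptor (SE, edgeR). *C1qa*, *C1qb*, *C1qc*, *Lyz2* and *Mrc1* are on the study's list from these samples. The summed level of the 8 markers was 354.8 to 498.7 CPM in non-diabetic Wt, 364 to 608.2 in diabetes-exposed Wt, 268.1 to 389 in non-diabetic Hif1a+/- and 535.4 to 803 in diabetes-exposed Hif1a+/-. It had an r with *Pi16* of 0.778 over the 12 samples and of 0.468 with group means taken off. By staining of LV sections, the study found macrophage numbers raised in diabetes-exposed Wt alone, a pattern unlike that of this RNA. The reason was not tested, nor was the part of these cells in the levels of the 9 genes.

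Smooth muscle and pericyte markers went the other way. Of 7, 6 had a negative log2 fold change between diabetes-exposed and non-diabetic Hif1a+/-, with a median of -0.27. With edgeR 0 passed, at an unadjusted p under 0.05 3 were lower, and with DESeq2 1 of 7 passed, *Myh11*, the myosin heavy chain of smooth muscle, at 28.6 CPM ± 2.12 in non-diabetic and 16.7 ± 1.07 in diabetes-exposed Hif1a+/- (SD, n = 3). *Myh11* is on the study's list from these samples too. Without replicate 72 DESeq2 called 0 of 7. The log2 fold change was -0.27 ± 0.0929 for *Abcc9*, a channel subunit that is not particular to pericytes, and -0.25 ± 0.0959 for *Rgs5*, a regulator of G proteins. It was -0.34 ± 0.176 for *Tagln*, an actin-binding protein (SE, edgeR). The summed level was 1198 to 1302 CPM in diabetes-exposed Hif1a+/- and 1299 to 1531 CPM in the other 9 samples. *Rgs5* and *Abcc9* were the largest parts of this sum, at means of 564 and 432 CPM in diabetes-exposed Hif1a+/-. The part of these markers in the levels of the 9 genes was not tested.

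Epicardial and mesothelial markers, which mark the outer layer of the heart, were at low levels. Of 9 genes found by symbol, 5 were tested, and *Upk1b*, *Lrrn4*, *Krt8* and *Bnc1* were below the filter. Their summed level was 9.85 to 15.9 CPM in non-diabetic Wt, 6.40 to 18.4 in diabetes-exposed Wt, 9.52 to 13.7 in non-diabetic Hif1a+/- and 8.39 to 16.1 in diabetes-exposed Hif1a+/-, so that all groups overlapped. *Wt1*, the epicardial transcription factor, had a log2 fold change of -0.39 ± 0.232 between diabetes-exposed and non-diabetic Hif1a+/-, and those of *Upk3b*, *Msln* and *Krt18* had standard errors between 0.524 and 1.18 (edgeR). The median of the 5 genes was 0.09, and -0.82 without replicate 72, where *Upk3b*, *Msln* and *Krt18* lay at -0.82, -0.94 and -1.29.

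Endothelial markers had a median log2 fold change of -0.05 over 6 genes, with 0 passing in edgeR and DESeq2. *Emcn*, a sialomucin of veins and capillaries, lay at 0.29 ± 0.0901 and *Cdh5*, the cadherin of endothelial junctions, at -0.27 ± 0.116, and *Tie1* and *Kdr*, receptor kinases, had -0.13 ± 0.133 and -0.05 ± 0.208 (SE, edgeR). Of 5 adipocyte markers *Lep* was below the filter, and the summed level was 2.06 to 5.84 CPM in non-diabetic Wt, 3.00 to 5.66 in diabetes-exposed Wt, 2.67 to 3.86 in non-diabetic Hif1a+/- and 3.03 to 7.70 in diabetes-exposed Hif1a+/-. *Adipoq*, the hormone adiponectin of adipocytes, had a log2 fold change of 1.41 ± 0.545 (SE, edgeR adjusted p = 0.362) with means below 1 CPM, and *Cfd*, *Cidec* and *Plin1* had 0.85 ± 0.461, 0.27 ± 0.506 and -0.15 ± 0.574. The median of these 4 was 0.56, and 0.10 without replicate 72, where *Cfd* lay at 0.47, *Cidec* at -0.26 and *Plin1* at -0.27. Of the Schwann cell markers, *Sox10*, a transcription factor of glia, had a log2 fold change of -0.31 ± 0.300 and *S100b*, a calcium-binding protein, of -0.25 ± 0.403 (SE, edgeR), or -0.57 without replicate 72. The 7 cardiomyocyte markers summed to between 75690 and 85470 CPM, as fits the LV label, and had a median log2 fold change of -0.03. *Ttn*, the giant sarcomere protein, lay at -0.32 ± 0.163, *Myl2*, the ventricular light chain, at 0.18 ± 0.153, *Pln*, phospholamban, at -0.09 ± 0.0943 and *Ryr2*, the calcium release channel, at -0.17 ± 0.193 (SE, edgeR).

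**Figure D4:**
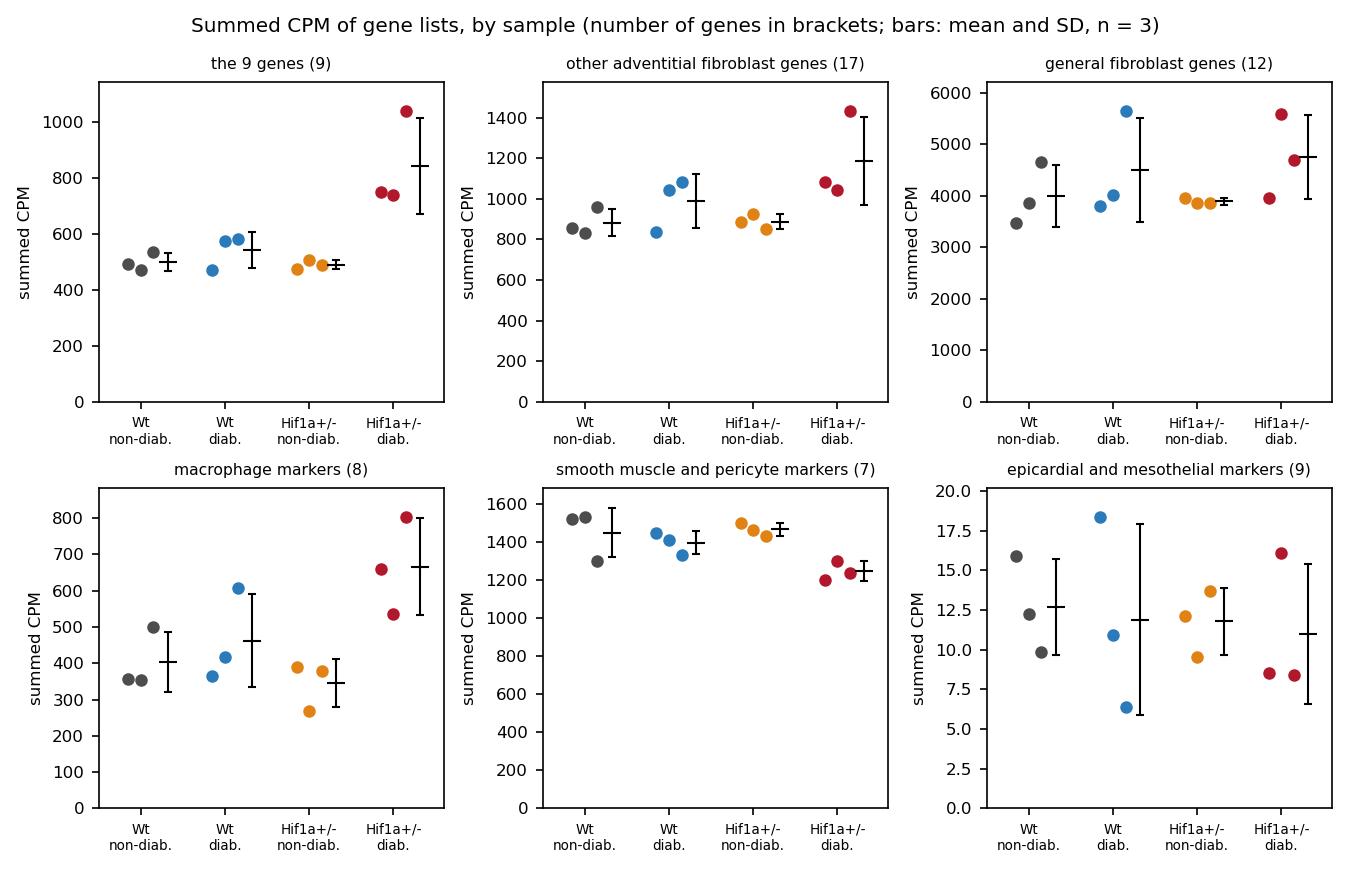
Summed CPM (vertical axes, from 0) of the 9 genes and of 5 marker lists in the 3 samples of each group (horizontal axes), with the group mean and SD beside the points. The 9 genes, chosen with these levels known, lie between 736.5 and 1039 CPM in diabetes-exposed Hif1a+/- and at or below 579.9 CPM elsewhere. In diabetes-exposed Hif1a+/- the sums of other adventitial genes, macrophage markers and, only just, general fibroblast genes are above those of non-diabetic Hif1a+/-. All 3 of these sums overlap diabetes-exposed Wt.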

How the data were processed

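Counts per gene were deposited by the authors for each of the 12 LV libraries. Per the labels and methods, 3′-seq reads were trimmed with Trimmomatic, cleaned of ribosomal and mitochondrial reads, aligned to GRCm38 with STAR (version 2.5.2b) and counted with HTSeq. The normalized values also deposited by the authors were not used. Reads aligned to several places, 12.37% to 17.02% of a sample, were not given to any gene. Symbols were matched through GENCODE M21 for 46488 of 46983 genes, and promoter windows came from RefSeq (GRCm38.p6).

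Groups were compared with the quasi-likelihood test of edgeR 4.0.16 (in R 4.3.3), with TMM scaling, edgeR's default filter on low counts by group and all 12 samples in 1 fit, which left 8 residual degrees of freedom. The biological coefficient of variation was 13.7%. Adjusted p came from the Benjamini-Hochberg procedure across 14706 genes, with the study's threshold of 0.1. Standard errors were the log2 fold change divided by the root of the test's F. DESeq2 (version 1.42.0) and limma-voom (limma version 3.58.1) were alternatives, beside other scaling, filters and fits and leaving out each sample. DESeq2 without each diabetes-exposed Hif1a+/- sample and the correlation in 9 samples were added after seeing the data. Correlations used log2 CPM with a prior count of 2. Tables and figures were made with Python 3.11.15 and pandas 2.3.3. The scripts were tested on simulated data.

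The members, lists and comparisons were chosen with earlier results of these data known. Genes named beside the members were the 10 tested genes with the highest r with *Pi16*, over the samples and with group means taken off, and up to 4 genes of each list with the smallest edgeR p between diabetes-exposed and non-diabetic Hif1a+/-, plus any past the adjusted threshold in a comparison, here by DESeq2. *Hif1a*, *Xist* and 4 Y-linked genes were named as checks. The lists held 17 other adventitial, 12 general and 7 activated fibroblast genes, 5 genes of the PDGF family, 25 relatives of the members, and markers of 6 other cell types and of the epicardium. *Muc16*, listed for the epicardium, was not found among the symbols. Part of the Schwann cell list is not reported here. Within groups, no library was found to be deposited more than once, since chi-square per gene lay at 5.54 to 47.25 in the 12 pairs of replicates (13071 genes). Samples of different groups were not compared in this way. Each replicate is a separate animal.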

Additional observations from a re-analysis of the deposited data

How the results depend on the processing

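No paired analysis was run, since each animal number occurs in 1 group and the sample labels used here do not give the litter. Whether Wt and Hif1a+/- samples shared a dam is therefore not known here. The number of the 9 genes called at an adjusted p under 0.1 depended on the tool and the filter. With the main edgeR fit, all 12 samples and the default filter, it was 0 in every comparison. Each count below is followed in brackets by the share of all genes called. Between diabetes-exposed and non-diabetic Hif1a+/- it was 7 with DESeq2 (1.44%), 7 with edgeR on unfiltered counts (2.19%), 7 with limma-voom (6.37%) and 4 with edgeR on those groups alone (0.708%). Leaving out 1 sample in edgeR gave 0 to 3, the latter without diabetes-exposed Hif1a+/- replicate 72 (0.253%), and DESeq2 without replicate 66, 72 or 77 gave 7 each time (1.30%, 1.21% and 0.667%). Between diabetes-exposed Hif1a+/- and diabetes-exposed Wt it was 4 with DESeq2 (0.155%), 6 on unfiltered counts (0.812%), 0 to 1 leaving out 1 sample (at most 0.0135%), and 4, 3 and 2 with DESeq2 without replicates 66, 72 and 77 (0.123%, 0.239% and 0.108%). Between diabetes-exposed Hif1a+/- and non-diabetic Wt it was 7 with DESeq2 (0.454%), 7 on unfiltered counts (1.64%), 1 with limma-voom (0.0136%), 0 to 1 leaving out 1 sample (0.00671% and 0.00666% without replicates 66 and 72), and 6, 7 and 5 with DESeq2 without replicates 66, 72 and 77 (0.480%, 0.654% and 0.195%). For the interaction it was 4 on unfiltered counts (0.288%) and, with DESeq2, 1 without replicate 66 (0.00374%) and 1 without replicate 72 (0.0514%). The cause of these differences between tools was not tested.

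The median log2 fold change of the 9 genes kept its sign under every setting run in the 4 comparisons with diabetes-exposed Hif1a+/- samples, the interaction included. The genes were chosen with those samples in view, so the kept sign describes the choice. Against non-diabetic Wt it was 0.49 to 0.73 leaving out 1 sample, and 0.49 with DESeq2 without replicate 77. The median r with *Pi16* was 0.35 with group means taken off and 0.401 in the 9 samples outside diabetes-exposed Hif1a+/-.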
